A study of Mus musculus with 4 samples.

Results

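The stretch of mouse chromosome 7 described here begins in a gene-poor area, crosses clusters of zinc finger and vomeronasal receptor genes, continues through the Siglec and kallikrein genes and ends in a gene-dense domain. It is made of all windows on chromosome 7 that start between 40000001 and 46000001 in GRCm38 and have a value in all 4 libraries. That gave 241 windows of 100 kb spaced 25 kb, of 109033 in the deposited table, and 61 of them do not overlap one another. The stretch was selected on measured values, because a rise of the wild-type profile at 43125000 to 43375000 was smaller in the Snf2h knockout. The difference between the genotypes is therefore given as a description, and nothing in it serves as support. Just outside the first window, polarity was 20.0, 14.2, 27.4 and 20.9 points in WT replicates 1 and 2 and KO replicates 1 and 2 for the window starting at 39975001, and 19.8, 14.8, 23.2 and 14.0 points for the first window itself. At the other edge it was 17.3, 19.9, 29.1 and 18.5 points in the last window, and 20.9, 25.2, 33.5 and 24.5 points in the window after it, in the same order of libraries.

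The cells were mouse embryonic stem cells, named 129S6/SvEvTac in the labels and grown on gelatin with serum and LIF. The wild type (WT) gave 2 libraries, and 2 more came from cells without Snf2h (Snf2h KO), the ATPase of the ISWI chromatin remodellers, with each genotype cultured in duplicate. How the knockout was made, and whether it is a single clone, is not given in the sources used here. RNA was not measured.

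TrAEL-seq captures free 3′ ends of DNA, many of which lie at replication forks, and the strand on which they lie depends on the direction of the fork. The measured value, called polarity here, is a signed measure of strand imbalance in a window, whose deposited values lie between -50 and 50 and are called points here. Its formula is not given in the sources used here. Where forks of a cell population run mostly one way, polarity is far from 0, and where it changes sign, forks on either side run in opposite directions. Which sign stands for forks moving to the right is not given in the sources used here. A "rise" therefore means an increase of polarity along the chromosome, and it is not called an initiation or a termination zone. SNF2H slides nucleosomes along DNA and helps to space them, and it has been studied both at sites of transcription factor binding and in replication.

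The gene content matched the name of the stretch. RefSeq places 289 genes in it, of which 183 are protein-coding and 47 are pseudogenes without known transcripts. The 4 Siglec family genes are Siglecf, Siglecg, Cd33 and Siglece, which encode sialic-acid-binding receptors of immune cells. They lie between 43351341 and 43672044. The 26 protein-coding kallikrein genes, which encode secreted serine proteases, lie side by side from Klk14 at 43680880 to Klk1, which ends at 44229622, and all 26 have the plus strand. The 11 genes with a Zfp symbol, which encode zinc finger proteins, spread over 3115.1 kb from Zfp788 to Zfp473. The 8 intact Vmn2r genes, for pheromone receptors of the vomeronasal organ, lie between 41399732 and 43048106.

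The sign changes of the profile on which the results turn fall in or beside 4 genes, and the promoters of these and of Siglecf, at the top of the wild-type rise, are shown here to place them. All are 300 bases from RefSeq (GRCm38.p6), read 5′ to 3′ on the gene's strand, with CG dinucleotides in capitals. They span 250 bases before to 50 after a start site listed in RefSeq's promoter table, which can lie inside the outermost gene bounds, as it does for Klk14 and Zfp976 by more than the window's length. The Zfp976 promoter lies at chr7:42642555-42642854 (minus strand), and the gene body holds a sign change found in all 4 libraries. The Gm35588 promoter lies at chr7:43253504-43253803 (plus strand), and that gene body holds the sign change of both WT libraries on the chosen rise. The Siglecf promoter lies at chr7:43351091-43351390 (plus strand). The Zfp719 promoter lies at chr7:43579336-43579635 (plus strand), and the first upward sign change of KO replicate 1 past the start of the chosen rise lies in the gene body. The Klk14 promoter lies at chr7:43690168-43690467 (plus strand), and the first such sign change of KO replicate 2 lies just past the gene.
Zfp976: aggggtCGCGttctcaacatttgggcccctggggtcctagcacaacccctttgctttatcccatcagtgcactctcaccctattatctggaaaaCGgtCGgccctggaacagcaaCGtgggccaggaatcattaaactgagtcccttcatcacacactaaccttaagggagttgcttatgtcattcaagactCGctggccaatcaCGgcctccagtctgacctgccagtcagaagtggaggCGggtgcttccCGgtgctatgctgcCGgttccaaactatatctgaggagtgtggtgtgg
Gm35588: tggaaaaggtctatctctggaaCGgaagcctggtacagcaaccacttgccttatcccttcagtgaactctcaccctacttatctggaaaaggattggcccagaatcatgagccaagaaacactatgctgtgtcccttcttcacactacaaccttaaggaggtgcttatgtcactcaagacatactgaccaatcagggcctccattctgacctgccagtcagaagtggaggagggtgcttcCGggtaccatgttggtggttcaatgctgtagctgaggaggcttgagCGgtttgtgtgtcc
Siglecf: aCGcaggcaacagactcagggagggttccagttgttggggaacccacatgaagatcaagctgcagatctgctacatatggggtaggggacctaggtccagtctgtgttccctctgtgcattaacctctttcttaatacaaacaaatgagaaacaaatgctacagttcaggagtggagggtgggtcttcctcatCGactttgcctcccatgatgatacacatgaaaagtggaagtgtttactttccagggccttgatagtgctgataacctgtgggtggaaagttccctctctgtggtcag
Zfp719: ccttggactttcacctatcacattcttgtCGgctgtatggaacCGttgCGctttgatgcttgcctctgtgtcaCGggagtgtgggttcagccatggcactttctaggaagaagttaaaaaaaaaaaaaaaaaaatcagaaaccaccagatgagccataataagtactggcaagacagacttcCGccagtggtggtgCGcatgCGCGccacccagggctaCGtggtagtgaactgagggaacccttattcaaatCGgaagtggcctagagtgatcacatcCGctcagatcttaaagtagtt
Klk14: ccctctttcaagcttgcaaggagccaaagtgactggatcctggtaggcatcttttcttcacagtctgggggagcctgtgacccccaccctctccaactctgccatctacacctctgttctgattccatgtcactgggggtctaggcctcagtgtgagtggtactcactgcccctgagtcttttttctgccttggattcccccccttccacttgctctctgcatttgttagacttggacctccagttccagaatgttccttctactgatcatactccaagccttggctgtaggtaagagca
The search was for CG, which reads the same on both strands. The Zfp976 promoter holds 10 and that of Zfp719 holds 11, against 3 for Gm35588, 2 for Siglecf and 0 for Klk14. The median over the 14 promoters of the zinc finger genes was 12, against 1.00 for 5 Siglec promoters, 1.00 for 8 vomeronasal receptor promoters and 2.00 for 28 kallikrein promoters. At least 1 CG occurs in 94.6% and at least 10 in 43.5% of all 32851 promoters in the table, where the median is 7.0. A window of 100 kb is far wider than a promoter, so the profile does not place a sign change at any of these sequences.

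No window of the stretch lacked a value, whereas 7641 to 8249 windows of the whole table did, the most in KO replicate 2. The SD of polarity over 23672 autosomal windows that do not overlap, a measure of the height of the profile, was 14.6 and 12.8 points in WT, against 19.5 and 14.5 in KO. KO replicate 1 stood apart by this larger amplitude. The depth is unknown, because the table holds no counts, so no interval for counting error was computed.

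The rise on which the stretch was chosen was clear in WT and small in KO. Between midpoints 43125000 and 43375000, from Zfp936 to just past Siglecf, a running mean of 5 windows increased by 36.7 points in WT replicate 1 and 30.1 points in WT replicate 2. In the KO libraries it increased by 12 points and 5.76 points. Both KO libraries thus lay below both WT libraries. The means were 33.4 ± 4.66 points for WT, against 8.86 ± 4.38 points for KO (SD, n = 2 each), which differ by -24.5 points and a KO to WT ratio of 0.266. Among the 2433 rises that were called on the mean profile of all 4 libraries over the autosomes, 1 had a more negative difference. The median difference was 6.18 points, with 505 rises below 0, and it turned to -0.450 points, with 1296 below 0, after each library was scaled to the same SD. On that scale the chosen rise differed by -29.5 points, and again 1 rise had a more negative difference. This rank is the choice itself and not a test.

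**Figure D1:**
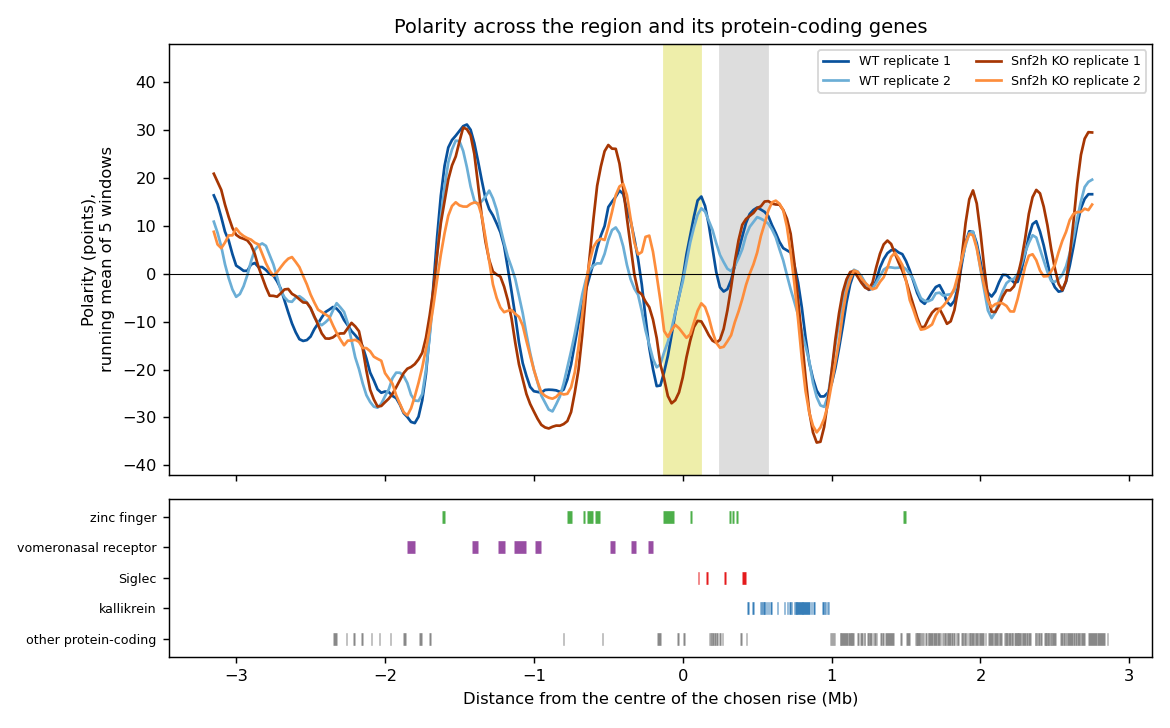
Polarity (running mean of 5 windows, points) of the 4 libraries against the distance from the centre of the chosen rise, with protein-coding genes below. The yellow band is the chosen rise, over which WT increased by 33.4 points and KO by 8.86 points on average, and the grey band is the next rise, where the values were 10.7 and 28.8 points.

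The genotypes overlapped at the start of the rise and were apart at its end. At 43125000, within Zfp936, polarity was -20.5 and -16.4 points in WT, against -21.9 and -11.9 in KO. In the single window 50 kb earlier, centred on 43075000, where the running mean of both WT libraries was lowest, it was -27.9 and -18.3 points in WT, against -11.5 and 0 in KO. At 43375000, between Siglecf and Siglecg, it was 16.1 and 13.7 points in WT, against -9.96 and -6.16 in KO. The sign therefore differed between the genotypes at the top of the rise, by -23.0 points with a pooled replicate SD of 2.26 points.

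Turning points called in each library alone gave the same picture. In both WT libraries a rising segment ran from 43075000 to 43375000, by 39.6 points in replicate 1 and 33.2 points in replicate 2. In neither KO library did a rising segment of at least 1 SD of that library begin between 43075000 and 43450000. KO replicate 1 was lowest at 43175000, with -27.0 points, farther along than the WT libraries. KO replicate 2 had -13.2 points at 43150000 and -13.4 points at 43275000. Each library's lowest point within 200 kb of the start of the rise and highest within 200 kb of its end were taken. Between them the increase was 39.6 and 33.2 points in WT, against 24.2 and 7.21 in KO. The higher KO value belongs to replicate 1 and ends at 43575000, the limit of that search, with polarity still at -2.78 points. The rising segment of that library went on to 15.2 points at 43825000.

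Single windows showed the same separation without a running mean. From the window starting at 43175001 to that ending at 43625000, 15 windows in a row had both KO values below both WT values. Over them polarity averaged 4.83 and 5.94 points in WT, against -13.4 and -11.8 in KO, with differences of the means between -24.6 and -8.96 points. The midpoints of these windows run over EU599041, Gm35588, Zfp715, Siglecf, Siglecg, Lim2, Nkg7, Etfb, Cd33 and their neighbours. The 15 windows overlap one another, and 22.5% of the autosomal windows that do not overlap were separated in this direction.

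**Figure D2:**
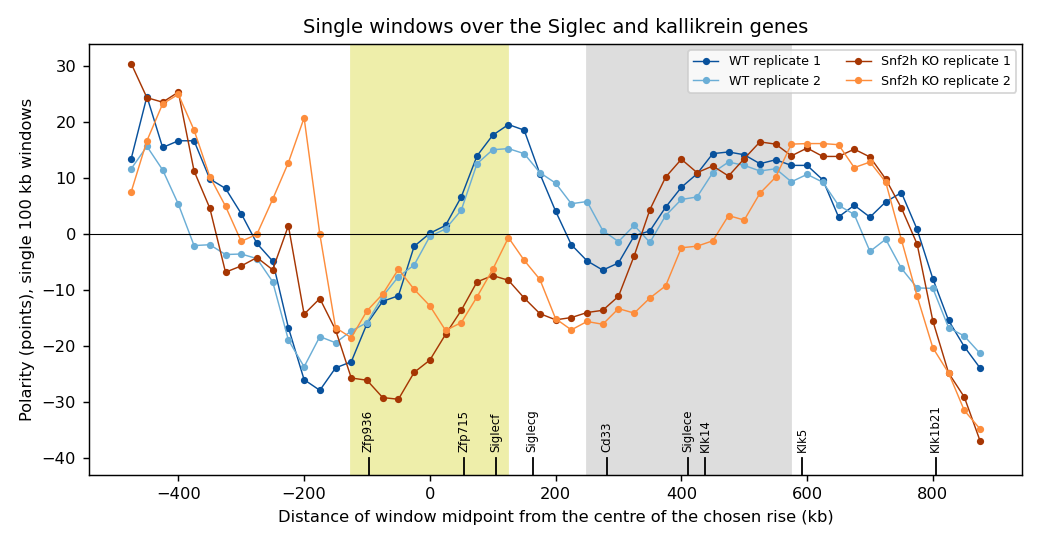
Polarity of single 100 kb windows (points) in each library, against the distance of the window midpoint from the centre of the chosen rise in kb; ticks mark gene midpoints, yellow the chosen rise and grey the next one. The 15 windows with midpoints from EU599041 to Zfp658 have both KO libraries below both WT libraries, and at Klk6 and Klk5 both KO libraries lie a few points above WT.

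The next rise along the chromosome was larger in KO. From 43500000, near Cd33, to 43825000, within Klk6, polarity increased by 14.8 and 6.53 points in WT, against 29.0 and 28.6 in KO. The KO libraries were the higher ones, without overlap. The means were 10.7 ± 5.88 points for WT, against 28.8 ± 0.246 points for KO (SD, n = 2 each), which differ by 18.1 points. This was 14.9 points after scaling to the same SD, and the unscaled median over the 2433 autosomal rises was 6.18 points. KO values were lower at the start of this next rise, with -13.8 and -15.4 points against -2.82 and 3.95 points in WT. At its end they were 15.2 and 13.2 points, against 12 and 10.5 points in WT.

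Over both rises together the genotypes ended close to each other. From 43125000 to 43825000 the increase was 32.6 and 26.9 points in WT, against 37.1 and 25.1 in KO, and KO replicate 2 lay below both WT libraries while KO replicate 1 lay above them. The difference of 1.41 points was smaller than the pooled replicate SD of 6.64 points. It turned to -5.24 points when each library was scaled to the same SD, so its direction is not settled. WT and KO thus climbed over the 700.0 kb by amounts that overlapped, and most of the WT increase lay before Siglecg while most of the KO increase lay after Cd33.

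The first upward sign change also lay at different positions. From the start of the chosen rise, the running mean first crossed 0 upward at 43255000 in WT replicate 1 and 43260000 in WT replicate 2, both within Gm35588. It first did so at 43588000 in KO replicate 1, within Zfp719, and at 43700000 in KO replicate 2, just past Klk14. The KO positions averaged 386.5 kb farther along, with replicate SDs of 3.54 kb in WT and 79.2 kb in KO (n = 2 each). WT replicate 1 crossed 0 downward at 43478000, within Iglon5, and crossed upward a further time at 43586000 in Zfp719, within 2 kb of KO replicate 1. The first crossings compared here may therefore not be the same one, which was not tested. WT replicate 2 stayed above 0 until 43948000. Positions are interpolated between windows, and each point of the running mean spans 200 kb of sequence.

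Several other sign changes lay close together in all 4 libraries. The upward one before Zfp788 lay at 41581000 and 41589000 in WT, and at 41586000 and 41606000 in KO, over a range of 25.0 kb. That within Zfp976 lay between 42611000 and 42630000, a range of 19 kb. The upward crossing after the kallikreins, near Syt3, had a range of 29.0 kb. The downward crossing within the vomeronasal receptor genes differed more, at 42081000 and 42114000 in WT, and at 41994000 and 41964000 in KO, with a KO minus WT difference of -118.5 kb and a pooled SD of 22.3 kb. The downward crossing just before the chosen rise varied over 182.0 kb, and its positions overlapped between the genotypes.

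The Siglec genes lay mostly where KO was below WT. Siglecf encodes the receptor Siglec-F of eosinophils, and over its midpoint polarity was 17.5 and 14.4 points in WT, against -8.90 and -5.68 in KO (mean of the 4 windows that hold the midpoint). Siglecg, an inhibitory receptor gene of B cells, had 13.3 and 12.5 points in WT, against -12.3 and -7.10 in KO. The sign thus differed between the genotypes at both genes, with no overlap of the groups. Cd33, a receptor gene of myeloid cells, had -4.15 and 1.68 points in WT, against -10.6 and -14.7 in KO. Siglece had 9.60 and 6.79 points in WT, against 11.7 and -3.74 in KO, and there the groups overlapped. Over the 15 windows that overlap a Siglec gene, mean polarity was 7.24 ± 0.137 points for WT, against -6.25 ± 3.53 points for KO (SD, n = 2 each), which differ by -13.5 points.

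The genes between Siglecg and Cd33 shared this pattern. Lim2, a lens membrane protein gene, and Nkg7, a gene of cytotoxic lymphocytes, lie within the same windows and had 7.90 and 9.99 points in WT, against -14.0 and -11.2 in KO. Etfb encodes a subunit of the mitochondrial electron transfer flavoprotein, and it had 2.06 and 7.85 points in WT, against -14.6 and -14.0 in KO. Before the Siglec genes, Zfp715 had 9.98 and 8.24 points in WT, against -11.9 and -12.6 in KO. These genes share windows and are therefore not independent of one another.

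Along the kallikrein genes the difference changed direction. Klk14, at the Siglec end, had 12.1 and 9.17 points in WT, against 11.8 and -0.601 in KO, where the low value of KO replicate 2 separated the KO libraries. Klk6 and Klk5, proteases known from brain and skin, had 11.9 and 10.3 points in WT, against 14.9 and 14.7 in KO. Klk15 had 4.27 and 1.18 points in WT, against 13.2 and 12.5 in KO, the largest positive difference among the 26 kallikreins at 10.1 points. Farther on, Klk1b22 had the most negative one at -10.8 points, and its neighbour Klk1b16 had -23.5 and -24.3 points in WT, against -35.2 and -33.5 in KO. Klk1, the tissue kallikrein that releases kinins, had -24.9 and -23.9 points in WT, against -23.8 and -25.8 in KO, and the groups overlapped.

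The profile dropped through the kallikrein cluster in every library. From 43825000 in Klk6 to 44175000, past Klk1b16, it dropped by 37.7 and 38.0 points in WT, against 50.3 and 45.3 in KO. The KO drop was larger by 9.97 points, with a pooled SD of 2.48 points. Both are on the deposited scale, where the SD over the autosomes was 14.6 and 12.8 points in WT, against 19.5 and 14.5 in KO. The downward crossing lay between 43948000 and 44012000 in the 4 libraries. From 44175000 to 44400000, out of the cluster and over Shank1, a synaptic scaffold gene, the profile increased by 25.8 and 28.3 points in WT, against 35.6 and 32.8 in KO. That difference of 7.14 points lay beside a median of 6.18 points over the 2433 autosomal rises. Mean polarity over all 26 windows that overlap a kallikrein gene was -3.80 ± 1.61 points for WT, against -5.04 ± 2.54 points for KO (SD, n = 2 each), so that the opposite differences within the cluster largely cancelled. This difference of -1.24 points was smaller than the pooled SD of 2.13 points, and it was 0.557 points without KO replicate 2.

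Counted by gene, the families differed in how many members were separated. Both KO values lay below both WT values for 3 of 4 Siglec genes, 6 of 11 zinc finger genes, 1 of 8 vomeronasal receptor genes and 8 of 26 kallikrein genes. They lay above for 0, 1, 1 and 6 genes of these families. Over all 20213 autosomal protein-coding genes with a value, 22.7% lay below and 23.9% above. The median difference was -17.0 points for the Siglec genes, -5.73 for the zinc finger genes, 0.286 for the vomeronasal receptor genes and -0.260 for the kallikreins, beside 0.0883 for all autosomal genes. Of the 183 protein-coding genes in the stretch, 62 lay below and 23 above. Neighbouring genes share windows, and the stretch was chosen on this contrast, so these counts are not support for a difference.

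The zinc finger genes sat on both sides of the sign changes. Zfp788 had 21.2 and 15.8 points in WT, against 14.4 and 7.0 in KO. Zfp141 had -21.4 and -18.1 points in WT, against -30.8 and -24.9 in KO, whereas Zfp976 had 0.256 and 1.83 points in WT, against 7.41 and 5.14 in KO. Zfp141 and Zfp976 lie at the foot and in the middle of the same rise, and their values in KO were farther from 0 in both cases. Zfp473, in the gene-dense part, had 3.83 and 1.78 points in WT, against 0.0618 and 0.653 in KO. Over the 40 windows that overlap a Zfp gene, mean polarity was -1.26 ± 0.142 points for WT, against -6.73 ± 0.280 points for KO (SD, n = 2 each), and KO was below WT without overlap in 22 windows and above in 4. Over all autosomal windows that do not overlap, 22.5% lay below and 22.2% above, and the 40 windows here overlap one another. Some of the 40, over Zfp715 and Zfp658, belong to the separated run at the chosen rise. The difference over the Zfp windows therefore partly restates the choice.

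The vomeronasal receptor genes lay mostly on the descents between rises. The window from 41400001 to 41500000, which holds most of Vmn2r57 at the foot of the tallest rise, had -30.8 and -29.3 points in WT, against -20.4 and -27.2 in KO. It had the lowest WT mean of the 61 windows that do not overlap. Vmn2r59 had 7.87 and 7.43 points in WT, against -0.522 and -7.69 in KO. Vmn2r126, just before the chosen rise, had -18.8 and -17.4 points in WT, against -7.67 and 9.97 in KO. Both KO values lay above WT there, but the KO libraries were far apart. In the window from 43000001 to 43100000, which holds Vmn2r126, KO replicate 1 had -14.3 points and KO replicate 2 had 20.8 points.

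The mean profile of the stretch held 7 rises, the chosen one and the next included. The tallest in WT ran from 41425000 to 41775000, over Vmn2r57 to Zfp788, with 61.8 and 51.0 points in WT, against 50.0 and 42.1 in KO, a difference of -10.3 points. The rise from 42375000 to 42800000, over Zfp141, Zfp977, Zfp976 and Zfp975, was 40.3 and 38.4 points in WT, against 58.0 and 42.5 in KO, a difference of 10.9 points. At the first of these rises both KO libraries lay below WT, and at the Zfp141 rise both lay above it. These heights are on the deposited scale, where KO replicate 1 had the largest SD over the autosomes, 19.5 points. The median difference over all 2433 autosomal rises was 6.18 points. The last rise, from 45775000 to 46100000 over Grin2d and Abcc6, was 22.8 and 23.8 points in WT, against 34 and 14.5 in KO, with the WT values between the KO values.

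**Figure D3:**
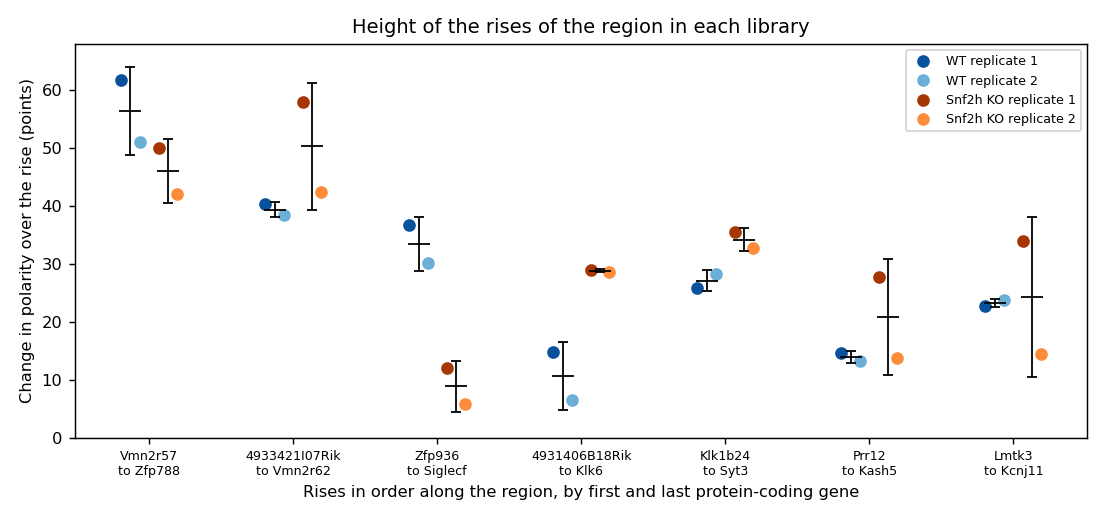
Change in polarity (points) over each of the 7 rises of the stretch, in order along the chromosome and named by the first and last protein-coding gene; points are libraries, bars the mean and SD (n = 2). At the chosen rise, Zfp936 to Siglecf, both KO libraries (12 and 5.76 points) lie below both WT libraries (36.7 and 30.1 points), and at the next rise the order is the opposite.

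The number of rises in the stretch differed little. Called in each library, there were 7 and 7 rising segments in WT and 7 and 5 in KO, and 8 and 8 falling segments in WT and 6 and 9 in KO. The differences of -1 and -0.50 did not exceed the pooled SDs of 1.00 and 1.50 segments, and both changed sign with the running mean or the minimum height.

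The height of the profile differed among the parts of the stretch, which also differ in length, from 0.330 to 1.95 Mb. Before Vmn2r57, where there were 5.72 protein-coding genes per Mb, the SD of polarity over windows was 12.1 ± 0.442 points for WT, against 13 ± 1.57 points for KO (SD, n = 2 each). In the zinc finger and vomeronasal receptor part it was 18.3 ± 2.01 and 18.1 ± 3.75 points, with 11.3 genes per Mb. Over the Siglec genes, with 54.6 genes per Mb, it was 7.05 ± 2.25 and 8.43 ± 3.62 points. Over the kallikreins, with 47.4 genes per Mb, it was 15.9 ± 0.189 points for WT, against 20.8 ± 1.44 points for KO, and the KO libraries were the higher ones. This SD is not scaled, and over the autosomes it was 14.6 and 12.8 points in WT, against 19.5 and 14.5 in KO. After Klk1, with 58.3 genes per Mb, it was 8.47 ± 0.295 and 10.8 ± 2.68 points. The most even 1.00 Mb, from 44225001 to 45225000, overlaps 60 protein-coding genes, with SDs of 7.01 and 4.72 points in WT, against 7.73 and 6.89 in KO. It holds Pold1, the catalytic subunit gene of DNA polymerase delta, at -2.74 and -2.80 points in WT, against -0.622 and -2.70 in KO. Med25, a Mediator subunit gene in the same part, had -6.63 and -5.95 points in WT, against -11.2 and -11.4 in KO.

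**Figure D4:**
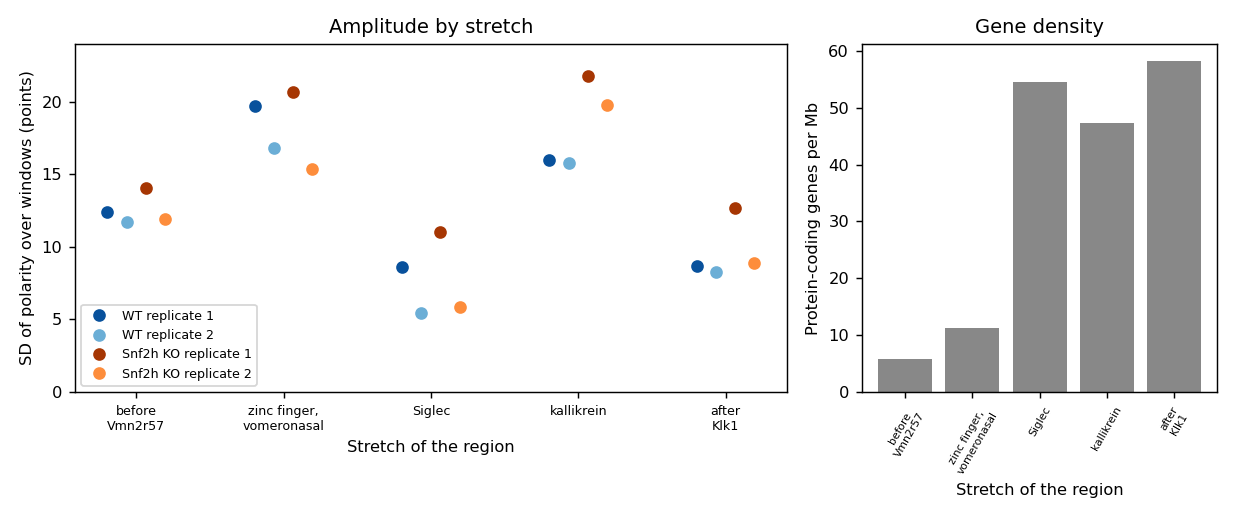
Left, the SD of polarity over overlapping windows (points) in each library for 5 consecutive parts of the stretch; right, protein-coding genes per Mb in the same parts. The profile is tallest over the zinc finger and vomeronasal receptor genes and over the kallikreins, and lowest over the Siglec genes and after Klk1.

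Spread between replicates was compared with the difference between genotypes. Over the 61 windows that do not overlap, the mean absolute difference was 3.74 points between the WT libraries, 6.5 points between the KO libraries and 6.24 points between the genotype means. Over the autosomes the same values were 3.99, 6.97 and 5.18 points. The last of each compares means of 2 libraries and the others compare single libraries, so they are unlike measures. Across the 61 windows, which share libraries and domains, Pearson's r was 0.944 within WT, 0.864 within KO and 0.708 to 0.868 between genotypes. Without the windows within 100 kb of the chosen rise, the mean r between genotypes was 0.872, against 0.785 with them and 0.891 over the autosomes. Those windows lie where the stretch was chosen for a difference, and r within KO was also higher without them, at 0.912. Over 22 overlapping windows of the kallikrein genes the mean r between genotypes was 0.932, and over 79 of the zinc finger and vomeronasal receptor part 0.796. Over 73 after the kallikreins it was 0.873, against a mean within genotypes of 0.861. Over 13 of the Siglec part it was 0.356, where single pairs ranged from -0.232 to 0.870. In that part r was 0.843 within WT and 0.545 within KO. The whole stretch had an SD of polarity of 14.9 and 13.6 points in WT, against 17.6 and 13.9 in KO, and the difference of 1.47 points was below the pooled SD of 1.99 points. It turned to -1.70 points after scaling to the same SD.

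**Figure D5:**
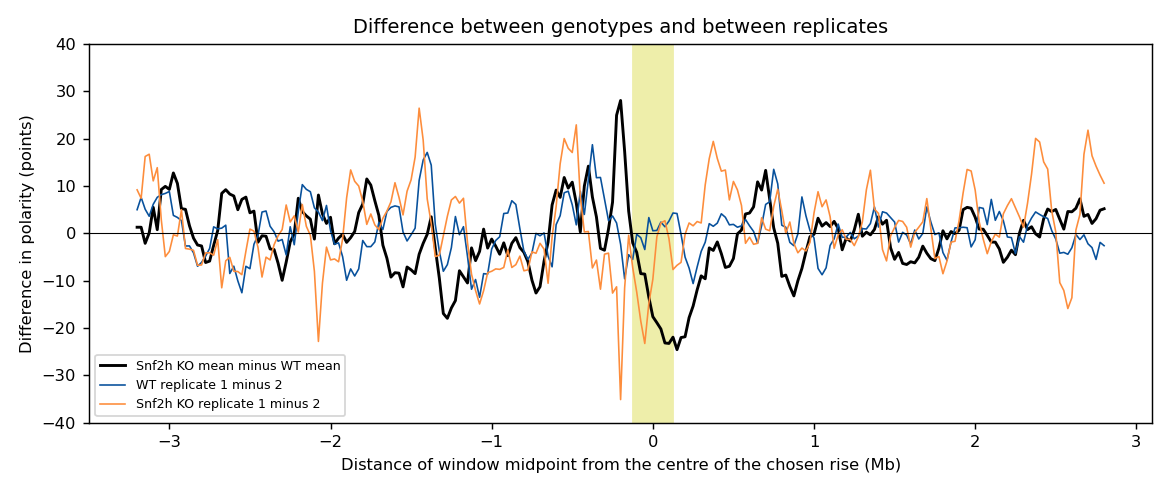
Difference in polarity (points) per window between the genotype means (black) and between the replicates of each genotype (blue, orange), against the distance from the centre of the chosen rise in Mb; the yellow band is that rise. The genotype difference reaches -24.6 points just past the rise, where the replicate lines are smaller, while its peak of 28.1 points before the rise coincides with a wide gap between the KO libraries.

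A test per window was fitted on all 23672 autosomal windows that do not overlap, with limma and Benjamini-Hochberg adjustment. None of the 61 windows had an adjusted p under 0.05 (0 of 61, beside 0.0549% of all windows), and 10 had an unadjusted p under 0.05 (16.4%, beside 12.2%), or 4 to 20 when a library was left out, the fewest without WT replicate 2 and the most without KO replicate 1. In 16 of the 61 both KO values lay above both WT values (26.2%, beside 22.2%), and in 16 both lay below (26.2%, beside 22.5%). The window from 43300001 to 43400000, with Zfp715 and Siglecf, had 17.7 and 15.1 points in WT, against -7.39 and -6.29 in KO. For its difference of -23.2 points (SE 4.51), limma gave an adjusted p of 0.0576. The window after it, from 43400001 to 43500000, had 4.12 and 9.13 points in WT, against -15.3 and -15.1 in KO, and limma gave an adjusted p of 0.0707 for its difference of -21.8 points (SE 4.55). After each library was scaled to the same SD, these 2 windows passed (2 of 61, beside 0.372% of all windows), with limma adjusted p of 0.0126 and 0.0345. The stretch was chosen on this contrast, and these values describe it only.

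The other windows with the largest separated differences were 43000001 to 43100000 (28.1 points, SE 7.12; limma adjusted p = 0.140), where the KO libraries disagreed, and 43200001 to 43300000 (-17.6 points, SE 4.74; limma adjusted p = 0.164), with EU599041 and Gm35588. The fifth lay apart from the Siglec genes. The window from 41900001 to 42000000, over the pseudogene Vmn2r-ps57, had 12.7 and 20.7 points in WT, against -0.450 and 0 in KO, and limma gave an adjusted p of 0.171 for its difference of -16.9 points (SE 4.66). It belongs to 8 consecutive separated windows from 41875001 to 42150000, which overlap one another and over which polarity averaged 8.49 and 11.2 points in WT, against -1.33 and -4.48 in KO. Separation in this direction held for 22.5% of all autosomal windows that do not overlap.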

How the data were processed

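TrAEL-seq was performed on 4 libraries, 2 WT and 2 Snf2h KO. The deposited values are signed scores per window, between -50 and 50. Reads had been aligned by the authors to GRCm38 plus an rRNA sequence and then deduplicated, per the file headers. Trim Galore 0.6.5 and Bowtie2 2.4.1 are named in the submitters' processing notes. The program and sign convention of the score are not given in the sources used here. The index in the column name of WT replicate 2 differs from its label, and the column was matched by the genotype and replicate in its name.

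Profiles were smoothed with a running mean of 5 windows. Rising and falling segments run between consecutive local extrema that differ by at least 1 SD of that library over autosomal windows. Common segments were called on the mean of the 4 libraries. Scaling to the same SD centred each library and set its autosomal SD to the mean of all 4. The test per window used limma 3.58.1 (R 4.3.3) on the deposited scale. Its script was tested on simulated data. Genes came from RefSeq for GRCm38.p6. Named windows were the 5 with the largest difference whose groups did not overlap. The members and lists were chosen with earlier results of these data known. Python 3.11.15 was used. A gene of the stretch is not reported here.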

Additional observations from a re-analysis of the deposited data

How the results depend on the processing

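The chosen rise kept its direction under all alternatives, with differences of -19.9 points without a running mean, -29.5 points after scaling and -27.8 to -21.2 points when each library was left out in turn. Windows that passed in limma numbered 0 of 61. They numbered 2 at an adjusted p under 0.1, 4 with trend and robust options, 2 after scaling, 5 with the replicate block and 7 with the block and scaling, beside 54, 302, 88, 630 and 856 of 23672 windows. They numbered 0 to 12 when a library was left out, 7 without KO replicate 1 and 12 without KO replicate 2, where 5.79% and 20.2% of all windows passed; the lone KO library is then assumed to vary like WT. The atanh scale gave 0. Windows with an unadjusted p under 0.05 numbered 10 on the deposited and atanh scales, 17 after scaling, 12 with trend and robust options, 15 with the block and 19 with the block and scaling. They numbered 7 without WT replicate 1, 4 without WT replicate 2, 20 without KO replicate 1 and 19 without KO replicate 2. The cause was not tested. The replicate numbers pair no cultures in the labels, and the deviations of same-numbered libraries correlated at 0.241 over the autosomes and 0.0158 after scaling.

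The SD of polarity turned to -1.70 points after scaling, with a range of -0.415 to 3.36 points over omissions and the lowest without KO replicate 1. Rising segments differed by 0.500 with a running mean of 3 windows, by 0 with 9 windows or a minimum of 15 points, and by -2.00 to 0 over omissions. Falling segments differed by 1.50 with a minimum of 15 points, and by -2.00 to 1.00 over omissions, with 1.00 without KO replicate 1. The kallikrein difference ranged from -3.04 to 0.557 points, positive only without KO replicate 2. The zinc finger difference was -4.81 points after scaling and -5.75 points over gene midpoints. The increase over both rises, added after seeing the data, was -5.24 points after scaling and -4.59 to 7.40 points over omissions, negative without KO replicate 1 or WT replicate 2. The Siglec difference kept its direction under the alternatives run, from -16.0 to -11.0 points. The next rise, also added after seeing the data, kept its direction too, from 14.0 points without WT replicate 2 to 22.3 without WT replicate 1. Depth is unknown, so what it limits was not tested.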
